A study of Mus musculus with 18 samples.

Results

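The 10 genes described here are classical readouts of the epithelial and the mesenchymal cell state, and they were chosen by symbol. They are the cadherins *Cdh1* and *Cdh2*, the intermediate filament gene *Vim*, the epithelial regulators *Grhl2* and *Esrp1*, and the transcription factor genes *Zeb1*, *Zeb2*, *Snai1*, *Snai2* and *Twist1*. Each symbol was matched to its Entrez identifier in the count files, and all 10 were found among the 27179 genes counted. All 10 also passed the filter on low counts, which left 17989 genes to be tested. *Twist1* passed only through the population in which it was high.

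RNA was sequenced from 6 sorted populations of untreated C57BL/6 mice, with 3 libraries each and 18 in all. Tracheas of mice 1 to 3 gave NGFR-positive basal stem cells (BSCs) and the NGFR-negative, non-basal cells of the same animals. Lungs of mice 4 to 6 gave EpCAM-positive CD104-positive airway cells split into CD24hi (enriched in ciliated cells) and CD24lo (enriched in club cells), EpCAM-positive CD104-low alveolar cells, and EpCAM-negative, non-epithelial cells. The study's methods give its mice as males of 8 to 12 weeks, and the lung stain included antibodies to CD45 (leukocytes) and CD31 (endothelium), whereas no such stain is described for the trachea. Because the trachea and the lung came from different mice, organ, animal and cell type cannot be told apart where a tracheal population is set against one from lung. The series description speaks of airways of mouse lungs only, whereas the sample labels give trachea for mice 1 to 3, and the labels were followed.

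An epithelial sheet is held together by E-cadherin, the product of *Cdh1*, whereas fibroblasts and other mesenchymal cells are rich in vimentin and may carry N-cadherin, the product of *Cdh2*. In an epithelial to mesenchymal transition the zinc finger repressors of the Snail and Zeb families and the bHLH factor Twist1 lower *Cdh1* and other epithelial genes, in large part by binding E-box sequences. The factor Grhl2 and the splicing regulator Esrp1 maintain the epithelial programme. In the adult lung these transcription factors are best known from fibroblasts, pericytes, smooth muscle and, for some of them, endothelium.

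Counted reads ranged from 29317215 to 32993621 in the 6 tracheal libraries and from 9811503 to 13208897 in the 12 lung libraries, so genes of low abundance carried less counting error in trachea. The tracheal totals exceed the reads per mouse sample stated in the study's methods, and this difference was not resolved. The gates were checked against marker transcripts. Summed basal markers, which include the sorted antigen gene *Ngfr*, reached 4160 to 4335 CPM (counts scaled to TMM-adjusted library size) in BSCs and 312 to 411 CPM in non-basal cells. *Foxj1*, a ciliated cell factor, was highest in CD24hi cells at 1613 ± 161 CPM (SD, n = 3), the club cell secretoglobin *Scgb1a1* in CD24lo cells at 280147 ± 51426 CPM (SD, n = 3), and the surfactant gene *Sftpc* in alveolar cells at 125611 ± 8634 CPM (SD, n = 3). EpCAM-negative cells held 26357 to 27817 CPM of 5 fibroblast markers, 2966 to 3101 CPM of 5 smooth muscle and pericyte markers and 526 to 825 CPM of 6 endothelial markers. *Epcam*, *Itgb4*, *Cd24a* and *Ngfr* encode the sorted antigens and are not results.

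In the GRCm38 annotation the epithelial genes are *Cdh1* (Entrez 12550) at chr8:106603350-106670247, *Grhl2* (Entrez 252973) at chr15:37232821-37363569 and *Esrp1* (Entrez 207920) at chr4:11331933-11386783. The mesenchymal structural genes are *Cdh2* (Entrez 12558) at chr18:16588877-16809246 and *Vim* (Entrez 22352) at chr2:13574311-13582826. The transcription factor genes are *Zeb1* (Entrez 21417) at chr18:5591327-5775468, *Zeb2* (Entrez 24136) at chr2:44983512-45117442, *Snai1* (Entrez 20613) at chr2:167538195-167542814, *Snai2* (Entrez 20583) at chr16:14705852-14709395 and *Twist1* (Entrez 22160) at chr12:33957671-33959831.

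Levels of different genes are given per length, as RPKM, which is CPM on TMM-scaled library sizes divided by gene length in kilobases. *Cdh1* stood at 181.2, 179.9 and 179.9 RPKM in CD24hi cells, 131.5, 127.1 and 129.3 RPKM in the non-basal gate, 110.7, 114.3 and 111.5 RPKM in BSCs, 111.4, 104.7 and 117.7 RPKM in alveolar cells and 76.7, 93.3 and 92.7 RPKM in CD24lo cells. In EpCAM-negative cells it was 2.67, 2.84 and 2.67 RPKM. All 15 epithelial libraries thus lay far above the 3 EpCAM-negative ones. Among epithelial populations, CD24hi cells were above non-basal cells by 0.48 ± 0.09 on the log2 scale (SE, edgeR adjusted p = 9.09e-05), and alveolar cells were above CD24lo cells by 0.35 ± 0.09 (SE, edgeR adjusted p = 0.00295). Non-basal cells and BSCs did not pass the threshold of 0.05 (edgeR adjusted p = 0.0578), nor did BSCs and alveolar cells (edgeR adjusted p = 0.916), whose libraries overlapped.

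*Grhl2* encodes a grainyhead factor that activates junction genes, and it followed a steeper order. BSC libraries held 57.3, 59.3 and 57.1 RPKM, non-basal libraries 39.5, 40.7 and 40.9, CD24hi libraries 21.4, 20.8 and 22.4, CD24lo libraries 16.1, 22.0 and 19.8, alveolar libraries 12.7, 12.6 and 13.8, and EpCAM-negative libraries 0.162, 0.217 and 0.246. Each step down this order passed the test except that from CD24hi to CD24lo (edgeR adjusted p = 0.191), where the libraries overlapped. *Esrp1*, which directs epithelial exon choice, gave the same order of populations. Its means were 50.9 ± 1.7 RPKM in BSCs, 45.5 ± 1.2 RPKM in the non-basal gate, 24.95 ± 0.74 RPKM in CD24hi cells, 19.3 ± 2.0 RPKM in CD24lo cells, 15.7 ± 0.8 RPKM in alveolar cells and 0.375 ± 0.105 RPKM in EpCAM-negative cells (SD, n = 3). The BSC and non-basal levels of *Esrp1* were the only neighbours in its order that did not pass (edgeR adjusted p = 0.166). *Cdh1* therefore did not track these 2 regulators within epithelium: *Grhl2* was 4.45-fold higher in BSCs than in alveolar cells and *Esrp1* 3.25-fold, while the fold for *Cdh1* was 1.01.

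*Vim* was the most abundant of the 10 genes in EpCAM-negative cells, at 675.8, 696.9 and 704.5 RPKM. Lung epithelial gates held 54.4, 31.2 and 19.1 RPKM (CD24hi), 90.8, 38.4 and 44.3 RPKM (CD24lo) and 49.6, 51.7 and 41.5 RPKM (alveolar). Tracheal libraries held 5.68, 3.45 and 4.53 RPKM in the non-basal gate, above 1.85, 2.91 and 2.80 RPKM in BSCs. The 3 lung epithelial gates overlapped and did not differ from neighbour to neighbour (edgeR adjusted p = 0.501 and 0.243), but the step from CD24hi down to non-basal cells was 2.94 ± 0.35 on the log2 scale (SE, edgeR adjusted p = 9.31e-07).

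*Cdh2* did not share the distribution of *Vim*. It was highest in BSCs, at 1.19, 1.17 and 0.906 RPKM from 149 to 196 reads, and next in EpCAM-negative cells, at 0.449, 0.746 and 0.590 RPKM. Non-basal libraries held 0.506, 0.363 and 0.505 RPKM. Lung epithelial libraries held 1 to 12 reads of *Cdh2* each, or 0.0198 to 0.254 RPKM. BSCs were above EpCAM-negative cells by 0.87 ± 0.26 on the log2 scale (SE, edgeR adjusted p = 0.00693), while EpCAM-negative and non-basal cells overlapped (edgeR adjusted p = 0.234). At about 1 RPKM, *Cdh2* remained 92.8 to 123.1 times lower per length than *Cdh1* within each BSC library.

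Among the transcription factors, *Zeb1*, a zinc finger homeobox repressor of *Cdh1*, differed at every step between the 6 populations. It measured 24.2, 25.6 and 22.8 RPKM in EpCAM-negative cells, 7.87, 4.68 and 4.56 RPKM in CD24lo cells, 5.08, 3.13 and 2.53 RPKM in CD24hi cells, 2.38, 2.76 and 1.74 RPKM in alveolar cells, 1.138, 1.198 and 1.228 RPKM in the non-basal gate and 0.206, 0.205 and 0.195 RPKM in BSCs. All 5 neighbouring steps passed the test, although CD24lo overlapped CD24hi and CD24hi overlapped alveolar cells. BSCs had the lowest *Zeb1* of any population, 5.87-fold under the non-basal cells of the same mice.

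Its paralogue *Zeb2* had another order. EpCAM-negative libraries held 28.9, 31.0 and 30.4 RPKM, alveolar libraries 2.10, 2.24 and 1.47, CD24lo libraries 2.93, 1.28 and 1.47, CD24hi libraries 1.26, 0.756 and 0.552, BSC libraries 0.150, 0.149 and 0.174, and non-basal libraries 0.0860, 0.0385 and 0.0858. Alveolar and CD24lo cells overlapped (edgeR adjusted p = 0.952) and the other 4 neighbours differed. In the trachea *Zeb1* was higher in non-basal cells and *Zeb2* lower there than in BSCs, but the *Zeb2* step (edgeR adjusted p = 0.0358) was not called when any of 5 of the 6 libraries was left out, with voom, with thinned tracheal libraries or with the gene length correction.

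*Snai1* encodes Snail, a direct repressor of *Cdh1*. It measured 28.4, 27.0 and 35.03 RPKM in EpCAM-negative cells, 3.94, 2.55 and 3.05 RPKM in alveolar cells, 2.67, 1.67 and 0.580 RPKM in CD24lo cells and 1.71, 1.07 and 0.544 RPKM in CD24hi cells. Tracheal libraries had 3 to 9 reads each, a mean of 0.0947 RPKM in BSCs and 0.115 RPKM in non-basal cells, and no difference between these was detectable at this depth (edgeR adjusted p = 0.809). The steps between alveolar, CD24lo and CD24hi cells did not pass either.

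*Snai2*, which encodes Slug, was the exception among the transcription factors. BSC libraries held 15.5, 20.8 and 19.2 RPKM (1098, 1514 and 1370 reads), all above the EpCAM-negative libraries at 7.97, 7.34 and 6.96 RPKM. CD24lo libraries held 2.61, 3.66 and 1.94 RPKM, non-basal libraries 1.40, 1.26 and 2.31 RPKM, alveolar libraries 0.875, 0.914 and 0.601 RPKM and CD24hi libraries 0.412, 0.478 and 0.234 RPKM. The alveolar libraries had only 12 to 20 *Snai2* reads each, and the CD24hi libraries 6 to 13. All 5 neighbouring steps passed the test, and only CD24lo and non-basal libraries overlapped.

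*Twist1*, a bHLH factor of mesoderm, was detected above a few reads only in EpCAM-negative cells, with 47, 58 and 55 reads or 2.32, 2.94 and 2.57 RPKM. Summed over 3 libraries each, BSCs had 3 reads, non-basal cells 7, CD24hi cells 2, CD24lo cells 6 and alveolar cells 5. None of the 4 steps between the epithelial populations passed the test, at edgeR adjusted p from 0.343 to 0.761.

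**Figure D1:**
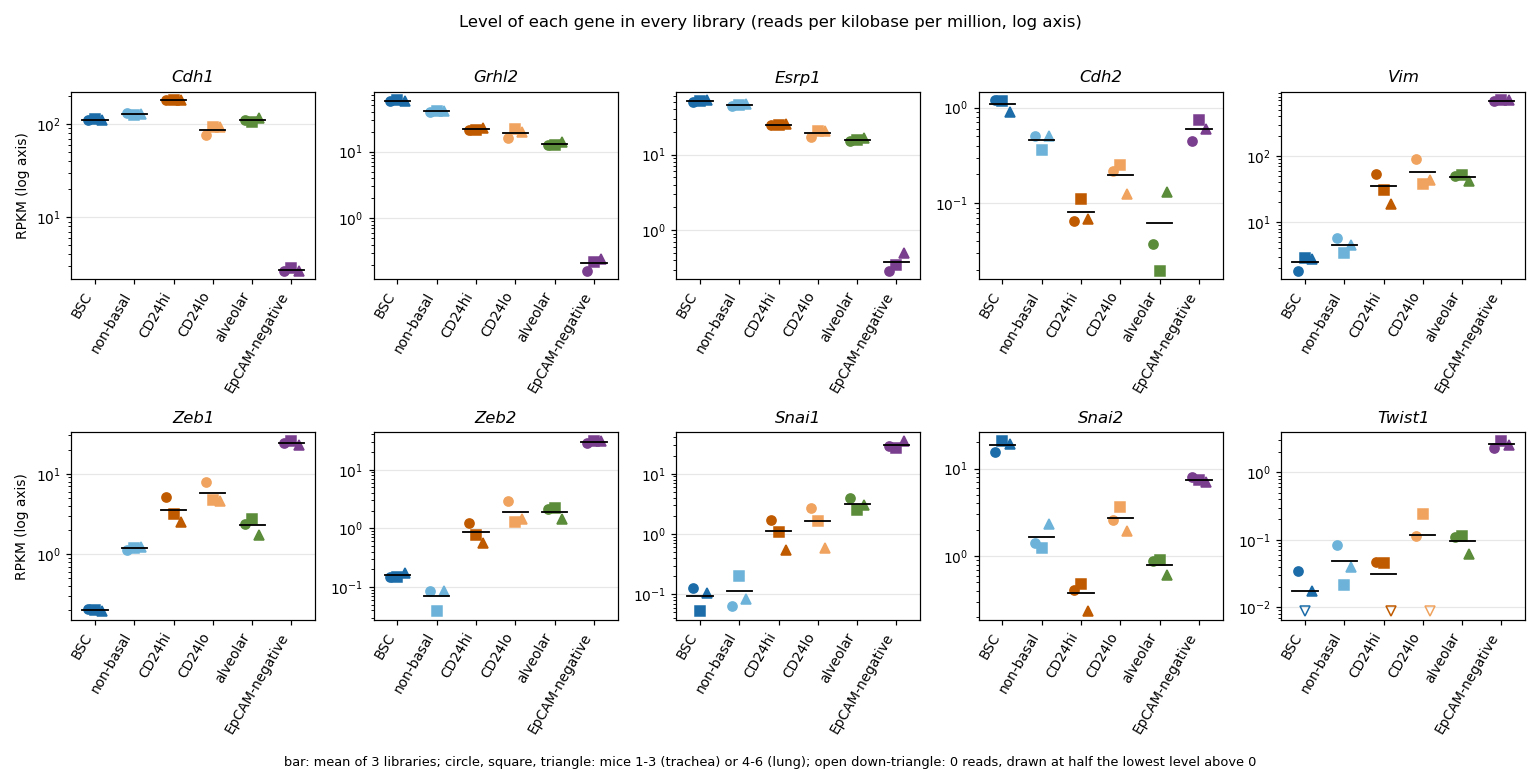
Level of each of the 10 genes in every library, as RPKM on a log axis, by population. Points are libraries (circle, square and triangle for mice 1 to 3 in trachea and 4 to 6 in lung), bars are means of 3, and open triangles mark libraries with 0 reads. *Cdh1*, *Grhl2* and *Esrp1* drop in EpCAM-negative cells, 5 genes peak there, and *Snai2* and *Cdh2* peak in BSCs.

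Over all 15 pairs of populations, 128 of the 150 contrasts of a gene and a pair passed an adjusted p of 0.05, and 33 of the 50 neighbouring steps did. Many genes differ between these populations, which is the background for such counts. In the 8 pairs not taken up below, the share of all tested genes called in either direction was 72.0% for BSCs against CD24hi (9 of the 10 listed genes), 63.8% for BSCs against CD24lo (10 of 10) and 68.4% for non-basal against CD24hi cells (9 of 10). It was 53.1% for non-basal against CD24lo cells (9 of 10), 64.0% for non-basal against alveolar cells (9 of 10) and 71.6% for non-basal against EpCAM-negative cells (9 of 10). For CD24hi against alveolar cells it was 61.9% (7 of 10), and for CD24lo against alveolar cells 48.4% (6 of 10). Shares of listed genes close to these backgrounds, as in the last 2 pairs, say nothing particular about the list. Whether the other shares exceed their backgrounds was not tested, and a share of 10 genes is coarse. No background was computed for the neighbouring steps, so their count is not read as a result about the listed genes. For BSCs against CD24lo the call of *Twist1* rested on 3 reads in BSCs and 6 in CD24lo cells, in libraries that overlapped.

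Promoter sequences were in the reference table for 4 of the 10 genes, *Vim*, *Zeb2*, *Snai1* and *Twist1*, all highest in EpCAM-negative cells. *Zeb1*, with its peak in the same cells, had none there. The 4 sequences are shown because they were the ones available, and because Snail, Zeb and Twist proteins bind E-boxes. Each is the 250 bases before the annotated start on the gene's strand (RefSeq, GRCm38.p6, the build mm10), in lower case, with the E-box letters CAGGTG or CACCTG in capitals. The windows are chr2:13574061-13574310 (plus strand) for *Vim*, chr2:45117443-45117692 (minus strand) for the outermost of 4 starts of *Zeb2*, chr2:167537945-167538194 (plus strand) for *Snai1* and chr12:33957421-33957670 (plus strand) for *Twist1*.
Vim: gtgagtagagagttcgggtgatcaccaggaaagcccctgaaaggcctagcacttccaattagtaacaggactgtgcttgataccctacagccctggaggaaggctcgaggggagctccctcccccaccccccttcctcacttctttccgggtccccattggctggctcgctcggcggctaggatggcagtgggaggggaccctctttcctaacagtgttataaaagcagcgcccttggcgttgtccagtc
Zeb2: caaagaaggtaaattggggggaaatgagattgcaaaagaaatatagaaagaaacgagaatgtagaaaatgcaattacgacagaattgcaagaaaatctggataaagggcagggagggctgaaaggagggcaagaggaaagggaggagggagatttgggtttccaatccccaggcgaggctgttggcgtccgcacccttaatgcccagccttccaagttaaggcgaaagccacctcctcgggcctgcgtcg
Snai1: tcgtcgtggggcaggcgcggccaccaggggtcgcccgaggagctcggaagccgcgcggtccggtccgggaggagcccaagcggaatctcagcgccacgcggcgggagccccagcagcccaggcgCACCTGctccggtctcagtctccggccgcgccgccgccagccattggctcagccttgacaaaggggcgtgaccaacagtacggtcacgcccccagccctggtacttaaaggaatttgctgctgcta
Twist1: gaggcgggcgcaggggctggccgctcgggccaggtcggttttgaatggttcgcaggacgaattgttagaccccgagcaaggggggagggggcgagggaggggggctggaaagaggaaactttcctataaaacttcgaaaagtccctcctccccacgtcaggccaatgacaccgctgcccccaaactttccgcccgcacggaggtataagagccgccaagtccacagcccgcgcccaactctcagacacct
The motif was searched on both strands, as CAGGTG reads CACCTG on the other. Of 32817 promoter windows of this length, 17.2% held it. It occurred once among the 4 windows, beginning 126 bases before the start of *Snai1*, and these letters were not in the other windows.

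The EpCAM-negative cells were compared with each lung epithelial gate of the same mice to place the 10 genes on the axis between the non-epithelial and epithelial states. All 10 passed the test against all 3 gates, 7 higher and 3 lower each time. *Twist1* is among the 7 and entered the test only through the EpCAM-negative libraries, so its direction is not independent of the filter. *Cdh1*, *Grhl2* and *Esrp1* were lower, with log2 fold changes from -6.68 to -5.002, and the largest gap was that of *Grhl2* against CD24hi cells, 102-fold. Of all genes tested, 32.7% were higher and 29.2% lower against alveolar cells, 36.7% and 35.6% against CD24hi cells, and 32.1% and 31.4% against CD24lo cells. The sort split these cells on EpCAM, itself an epithelial adhesion molecule, so the directions of epithelial genes are not independent of the gate.

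Against alveolar cells, *Zeb2* was 15.5-fold higher in EpCAM-negative cells (log2 fold change 3.95 ± 0.28, SE, edgeR adjusted p = 1.03e-09), *Vim* 14.5-fold (3.86 ± 0.35, edgeR adjusted p = 3.02e-08) and *Zeb1* 10.5-fold (3.40 ± 0.24, edgeR adjusted p = 7.53e-10). *Cdh2*, *Snai1* and *Snai2* were 9.61-, 9.45- and 9.22-fold higher. Against CD24hi cells the gaps of *Zeb2* and *Snai1* widened to 35.1-fold and 27.0-fold, while that of *Zeb1* was 6.76-fold. Against CD24lo cells the gaps were smallest for *Snai2* at 2.69-fold, *Cdh2* at 2.93-fold and *Zeb1* at 4.23-fold. For *Twist1* the CD24hi level from 2 reads was 0.0119 of the EpCAM-negative level, with a 95% exact counting interval of 0.00143 to 0.0438, which covers counting error only.

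Other genes of the 2 states were read from lists chosen by name. Of 20 mesenchymal matrix and contractile genes, all 20 were higher in EpCAM-negative cells than in each of the 3 gates, with median log2 fold changes of 4.54 (alveolar), 6.02 (CD24hi) and 4.77 (CD24lo), beside medians over all genes of 0.01, 0.04 and 0. *Lum*, a collagen-binding proteoglycan, and *Dcn*, its relative decorin, had the largest changes against alveolar cells, at 7.68 ± 0.25 and 7.19 ± 0.19 (SE). *Lum* at 8.28 ± 0.26 and the collagen gene *Col1a2* at 7.42 ± 0.52 led against CD24hi cells, and the same pair led against CD24lo cells at 7.14 ± 0.24 and 6.08 ± 0.48 (SE).

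Of 20 epithelial partner genes, 18, 19 and 20 were lower in EpCAM-negative cells than in alveolar, CD24hi and CD24lo cells, with medians of -4.94, -5.35 and -5.55. The Ets factor *Ehf* (-6.66 ± 0.24) and the tight junction gene *Tjp3* (-5.97 ± 0.15) changed most against alveolar cells, *Krt8* (-6.83 ± 0.13) and *Tjp3* (-6.81 ± 0.15) against CD24hi cells, and *Ehf* (-6.63 ± 0.24) and its relative *Elf3* (-6.53 ± 0.16) against CD24lo cells (SE). *Cdh3*, which encodes P-cadherin, was the 1 gene of the list that was higher in EpCAM-negative cells than in alveolar and CD24hi cells, by 2.39 ± 0.37 and 1.28 ± 0.30 (SE). It was named after its values were seen.

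Of 14 other transcription factors linked to the transition, 13 were tested, and 9, 10 and 10 were higher in EpCAM-negative cells than in alveolar, CD24hi and CD24lo cells, while 2, 2 and 1 were lower. *Twist2* (7.28 ± 0.43) and *Foxc1* (5.35 ± 0.23) had the largest changes against alveolar cells, and *Prrx1* (7.10 ± 0.32) and *Twist2* (6.45 ± 0.38) against CD24hi cells (SE). *Twist2* (6.40 ± 0.39) and *Prrx1* (5.22 ± 0.28) also led against CD24lo cells (SE). Summed over 3 libraries each, *Twist2* had 771 reads in EpCAM-negative cells and only 4, 9 and 7 in alveolar, CD24hi and CD24lo cells. Of 18 genes of the TGF-beta pathway, a major inducer of the transition, 14, 15 and 14 were higher and 2, 1 and 2 lower. The latent TGF-beta binding genes *Ltbp1* (3.93 ± 0.30) and *Ltbp2* (3.69 ± 0.23) led against alveolar cells, and the ligand gene *Tgfb3* led with *Ltbp1* against CD24hi cells (6.01 ± 0.21 and 5.44 ± 0.33) and CD24lo cells (4.16 ± 0.18 and 4.34 ± 0.31) (SE). The 5 miR-200 loci, whose mature products repress *Zeb1* and *Zeb2*, did not pass the filter in these libraries, and at most 15 reads per locus were summed over any population.

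Low levels of *Vim*, *Zeb1*, *Zeb2* and *Snai1* in the lung epithelial gates were set beside markers of other lung cells in the same libraries. As a percent of the EpCAM-negative mean, *Vim* stood at 2.76% to 7.85% in CD24hi, 5.55% to 13.1% in CD24lo and 5.99% to 7.47% in alveolar libraries. *Zeb1* stood higher, at 10.5% to 21.0%, 18.8% to 32.5% and 7.18% to 11.4%. *Zeb2* stood at 1.83% to 4.18%, 4.26% to 9.73% and 4.89% to 7.44%, and *Snai1* at 1.81% to 5.67%, 1.92% to 8.85% and 8.46% to 13.1%. In bulk libraries, fewer cells with a transcript and less of it per cell cannot be told apart.

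Of the 5 fibroblast markers, the collagen gene *Col1a1* stood at 0.308% to 1.15% in CD24hi, 1.23% to 2.00% in CD24lo and 2.32% to 4.33% in alveolar libraries, with *Col1a2* and *Col3a1* between 0.285% and 4.99%. The receptor gene *Pdgfra* stood at 0.815% to 1.91%, 2.01% to 3.36% and 7.59% to 10.3%, and *Dcn* at 0.529% to 0.723%, 3.29% to 4.29% and 0.573% to 0.756%. All 5 lay below the 4 genes in each CD24hi library, whereas *Pdgfra* lay above *Vim* and *Zeb2* in each alveolar library. In the alveolar gate *Pdgfra* also overlapped the ranges of *Zeb1* and *Snai1*, and *Col3a1* that of *Zeb2*. In CD24lo *Dcn*, *Pdgfra*, *Col3a1* and *Col1a1* overlapped the range of *Snai1*, and *Dcn* also that of *Zeb2*. The 5 smooth muscle and pericyte markers stood at 1.05% to 5.55% in CD24hi, 3.09% to 13.6% in CD24lo and 2.12% to 6.12% in alveolar libraries. In CD24lo the range of each overlapped those of *Vim*, *Zeb2* and *Snai1*. Endothelial transcripts stood higher. *Pecam1*, which encodes CD31, was at 28.3% to 112.2% in CD24hi, 50.3% to 154.4% in CD24lo and 25.6% to 49.3% in alveolar libraries. *Tek*, the lowest of the 6 endothelial markers, was at 17.4% to 45.8%, 28.5% to 78.6% and 13.8% to 28.5%. Its range overlapped that of *Zeb1* in both CD24 gates. The 6 endothelial markers summed to 199.5 to 633.9 CPM in CD24hi, 453.3 to 925.9 CPM in CD24lo and 144.9 to 294.8 CPM in alveolar libraries. The 8 haematopoietic markers summed to 15.2 to 18.6, 14.3 to 31.0 and 8.28 to 19.0 CPM. As percents they stood at 8.61% to 53.9%, 0% to 68.3% and 0% to 64.9%. The EpCAM-negative reference itself held only 28.4 to 96.9 CPM of haematopoietic and 526 to 825 CPM of endothelial markers, so percents of different lists do not compare directly. The study's methods give alveolar cells as negative for CD45 and CD31. No endothelial or haematopoietic marker was at 0 in all 3 libraries of a lung gate. In trachea the endothelial sum was 0.847 to 1.19 CPM in BSCs, with *Cdh5* and *Emcn* at 0 reads, and 2.53 to 4.07 CPM in non-basal cells.

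The spread between mice followed a pattern in 2 of the gates. In CD24hi and CD24lo, *Vim*, *Zeb1*, *Zeb2* and *Snai1* were each highest in mouse 4, and so were the summed endothelial and fibroblast markers. In CD24hi cells the endothelial sum was 633.9 CPM in mouse 4, 314.7 CPM in mouse 5 and 199.5 CPM in mouse 6, in the same order as all 4 genes, and the fibroblast sum was 264.3, 175.6 and 119.5 CPM. In CD24lo cells these sums were 925.9, 493.7 and 453.3 CPM, and 682.0, 539.2 and 562.9 CPM. The smooth muscle and pericyte sum was likewise highest in mouse 4, at 96.4, 68.4 and 36.8 CPM in CD24hi and 274.1, 126.8 and 244.9 CPM in CD24lo. The haematopoietic sum was highest in mouse 5 in CD24hi, at 18.6 CPM, and in mouse 6 in CD24lo, at 31.0 CPM. In the alveolar gate mouse 4 had the lowest endothelial sum, 144.9 CPM against 294.8 and 193.7 CPM, and the highest fibroblast sum, 1103 CPM against 855 and 666 CPM. There *Vim*, *Zeb1* and *Zeb2* were highest in mouse 5 and *Snai1* in mouse 4. The part of these other transcripts in the levels of the 4 genes was not tested. Without the 4 libraries of mouse 4, a choice made after seeing the data, all 10 genes still passed the test between EpCAM-negative cells and each of the 3 gates.

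**Figure D2:**
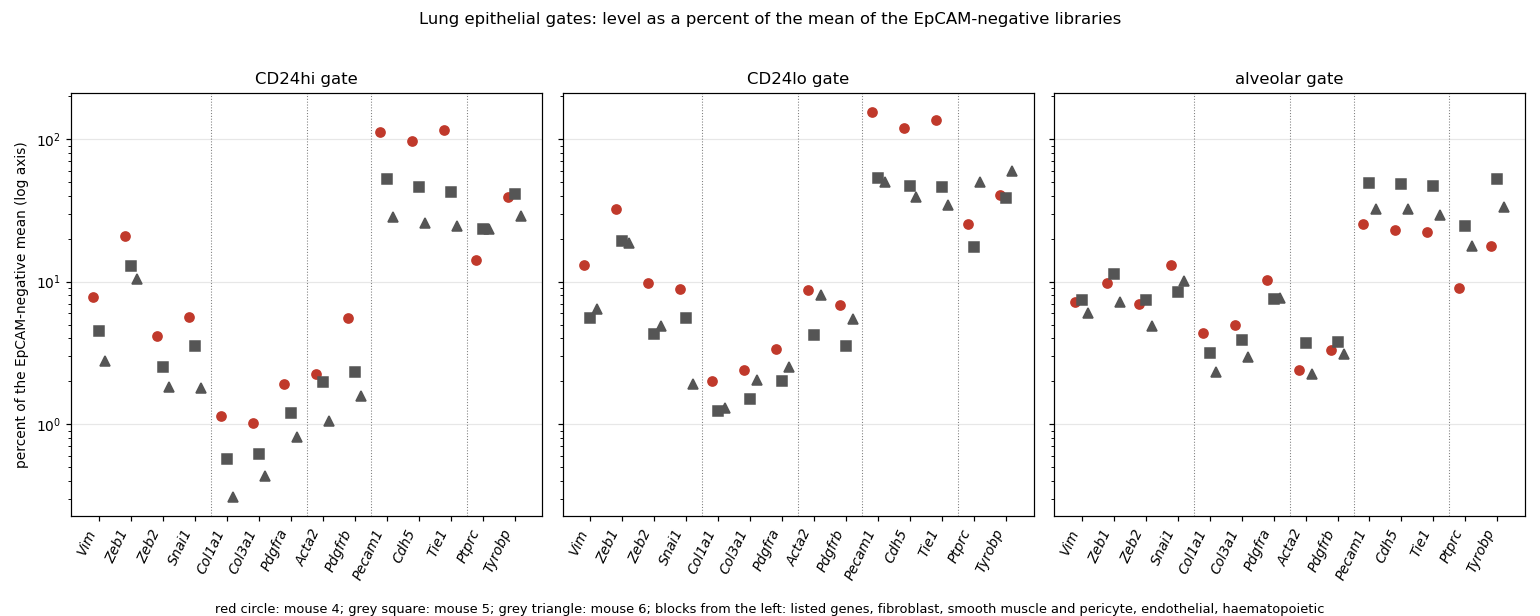
Level in each library of the CD24hi, CD24lo and alveolar gates as a percent of the mean of the 3 EpCAM-negative libraries, on a log axis, for 4 listed genes and examples of fibroblast, smooth muscle and pericyte, endothelial and haematopoietic markers. Red circles are mouse 4, grey squares mouse 5 and grey triangles mouse 6. *Zeb1* lies between *Col1a1* and *Pecam1* in all 9 libraries, and mouse 4 is highest for the 4 listed genes in both CD24 gates.

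BSCs were then compared with the non-basal cells of the same 3 tracheas. *Snai2* was 11.1-fold higher in BSCs (3.47 ± 0.22, SE, edgeR adjusted p = 1.26e-09), *Cdh2* 2.37-fold (1.25 ± 0.25, edgeR adjusted p = 0.000470), *Zeb2* 2.22-fold (1.15 ± 0.43, edgeR adjusted p = 0.0358) and *Grhl2* 1.43-fold (0.52 ± 0.10, edgeR adjusted p = 0.000249). *Zeb1* was 5.87-fold lower (-2.55 ± 0.28, edgeR adjusted p = 6.25e-07). So 4 genes were higher and 1 lower, where 21.9% of all genes tested were higher and 26.2% lower, and the number called was near the background. BSC and non-basal libraries overlapped only for *Snai1* and *Twist1*, so a lack of overlap did not set the 5 called genes apart. The share of all genes without overlap was not computed. *Vim* was at -0.85 ± 0.35 (edgeR adjusted p = 0.0560), *Cdh1* at -0.21 ± 0.09 (edgeR adjusted p = 0.0578) and *Esrp1* at 0.16 ± 0.09 (edgeR adjusted p = 0.166). *Snai1* and *Twist1* rested on 3 to 9 and 0 to 4 reads per library, and the non-basal level of *Twist1* was 2.81 times that of BSCs, with a 95% exact counting interval of 0.642 to 16.9.

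In a fit of only the 6 tracheal libraries, 8 of the 10 genes were called, both without and with the mouse as a replicate block. The genes added in both fits were *Cdh1*, *Vim* and *Esrp1*, which with the block stood at -0.22 (edgeR adjusted p = 0.00183), -0.86 (edgeR adjusted p = 0.00411) and 0.15 (edgeR adjusted p = 0.00462). Scaled by library size rather than TMM, the median of all genes moved by 0.33 and 72.2% of the calls were higher in BSCs in place of 45.5%. *Cdh1* then changed sign to 0.14 (edgeR adjusted p = 0.109), and *Snai2*, *Cdh2* and *Zeb1* remained called in their direction. The call for *Zeb2* did not hold when any of 5 of the 6 libraries was left out, the exception being non-basal replicate 3.

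The *Snai2* level of non-basal libraries was 6.79% to 12.5% of the BSC mean, close to *Krt5* at 6.72% to 8.45% and *Trp63* at 9.16% to 17.4%, and *Cdh2* was at 33.3% to 46.5%. *Ngfr*, on which these cells were sorted, was at 7.87% to 11.8%. *Krt5* and *Trp63* encode a basal keratin and the basal lineage factor p63. Fibroblast markers summed to 66.7 to 115.4 CPM in non-basal cells and 332.7 to 339.1 CPM in BSCs. *Dcn* made up nearly all of the BSC sum, at 332.0 to 338.8 CPM, and *Col1a1* stood at 0 to 0.169 CPM there and at 2.49 to 9.17 CPM in non-basal cells. The part of basal and fibroblast transcripts in the non-basal values was not tested.

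Matrix genes divided in this comparison. Of the 20 mesenchymal genes, 5 were higher in BSCs, namely the fibronectin gene *Fn1* (1.97 ± 0.22), the calcium-binding gene *S100a4* (1.51 ± 0.27), *Sparc* (2.83 ± 0.36), *Dcn* (2.33 ± 0.15) and the integrin gene *Itga5* (1.84 ± 0.30) (SE), named after their values were seen. The other 11 called genes were lower, led by *Col3a1* (-7.28 ± 0.69) and *Col1a2* (-6.95 ± 0.77) (SE), of which BSCs had 10 and 6 reads in all. The list median was -1.27 beside -0.02 over all genes.

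Of the 20 epithelial partners, 3 were higher in BSCs and 11 lower, with a median of -0.36. *Cdh3* at 3.10 ± 0.21 and the grainyhead relative *Grhl3* at 1.25 ± 0.20 (SE) had the largest changes. Of the 13 other factors tested, 3 were higher and 3 lower. *Prrx1* was at 0 reads in BSCs and 48 in non-basal cells, where it was 19.3-fold higher against a floor of 3 reads over the population. *Twist2*, at 0 against 7 reads, was 2.81-fold higher against that floor. Neither value is a lower bound, because the floor leaves out counting error in the non-basal reads. The other lower gene was *Snai3*, named after its values were seen, with 2 reads in BSCs and 15 in non-basal cells and a BSC level 0.111 of the non-basal level (95% exact counting interval 0.0123 to 0.475). In the fit of only these 6 libraries none of the 13 was called lower, without or with the block, and 5 were called higher with it. With library size alone 6 of the 13 were higher, as were 5 of the epithelial partners. Of 18 TGF-beta pathway genes, 8 were higher in BSCs and 1, *Ltbp2* (-5.55 ± 0.34, SE), was lower. The lower genes numbered 4 with only the 6 libraries, without or with the block, 4 with DESeq2, 3 with voom, and 2 without BSC replicate 1 or non-basal replicate 2.

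The CD24hi and CD24lo airway gates of the same lungs were compared next. *Cdh1* was 2.06-fold higher in CD24hi cells (1.04 ± 0.09, SE, edgeR adjusted p = 1.90e-08) and *Esrp1* 1.30-fold (0.37 ± 0.10, edgeR adjusted p = 0.00306). *Snai2* was 7.25-fold lower (-2.86 ± 0.34, edgeR adjusted p = 1.14e-06), *Cdh2* 2.44-fold (-1.29 ± 0.48, edgeR adjusted p = 0.0293), *Zeb2* 2.22-fold (-1.15 ± 0.30, edgeR adjusted p = 0.00310) and *Zeb1* 1.60-fold (-0.68 ± 0.22, edgeR adjusted p = 0.0165). Beside the 2 higher and 4 lower genes, 27.8% of all genes tested were higher and 27.2% lower, so the number called was near the background. *Zeb1* libraries of the 2 gates overlapped, as did those of *Vim* (-0.73 ± 0.32, edgeR adjusted p = 0.0658), *Snai1* (-0.60 ± 0.43, edgeR adjusted p = 0.255) and *Grhl2* (0.16 ± 0.10, edgeR adjusted p = 0.191).

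The endothelial sum was lower in CD24hi than in CD24lo cells in each of the 3 mice. The 4 basal markers summed to 12.1 to 17.3 CPM in CD24hi and 121.1 to 216.6 CPM in CD24lo cells. The part of endothelial and basal transcripts in these differences was not tested. The call for *Zeb1* was lost without CD24hi replicate 2, CD24hi replicate 3 or CD24lo replicate 1, with values from -1.01 to -0.37 over the 6 libraries left out in turn. *Vim* ranged from -1.199 to -0.24 and *Zeb2*, which stayed called, from -1.54 to -0.68. With the mouse as a block, *Cdh2* was no longer called (-1.28, edgeR adjusted p = 0.0624) and *Vim* was (-0.77, edgeR adjusted p = 0.00642). With only the 6 libraries and no block, *Esrp1* (edgeR adjusted p = 0.0626), *Zeb1* (edgeR adjusted p = 0.0912) and *Cdh2* (edgeR adjusted p = 0.0501) lost their calls. Without mouse 4 the calls of *Cdh1*, *Esrp1*, *Zeb1*, *Zeb2* and *Snai2* held, *Cdh2* was at -1.08 (edgeR adjusted p = 0.151) and *Vim* at -0.71 (edgeR adjusted p = 0.0170). With library size alone, 68.4% of calls were higher in CD24hi cells in place of 50.5%, and *Zeb1* (-0.40, edgeR adjusted p = 0.166) and *Cdh2* (-1.002, edgeR adjusted p = 0.0837) were not called.

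Of the 20 mesenchymal genes, 18 were lower in CD24hi cells and none higher, with a median of -1.22 beside -0.06 over all genes, led by *Dcn* (-2.57 ± 0.16) and *Acta2* (-1.99 ± 0.29) (SE). Smooth muscle and pericyte markers, of which *Acta2* is one, summed to 36.8 to 96.4 CPM in CD24hi and 126.8 to 274.1 CPM in CD24lo cells. Epithelial partners were 7 higher and 6 lower, with *Cdh3* (-2.32 ± 0.28) and *Ehf* (-2.18 ± 0.18) changed most, and 11 higher and 3 lower with library size alone. Of the 13 other factors 2 were higher and 4 lower, led by *Foxc2* (-2.03 ± 0.65) and *Prrx1* (-1.88 ± 0.39) (SE). *Foxc2* had only 6 reads in CD24hi and 19 in CD24lo cells, summed over the libraries of each gate. Of the 18 TGF-beta pathway genes 4 were higher and 11 lower, led by *Tgfb2* (-2.42 ± 0.17) and *Tgfb3* (-1.85 ± 0.20) (SE). The 4 higher pathway genes became 2 without CD24lo replicate 2 or replicate 3 and 1 with only the 6 libraries, and the 2 higher factors became 1 without CD24hi replicate 1, CD24lo replicate 2 or CD24lo replicate 3, with only the 6 libraries and with the block.

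BSCs and alveolar cells are the pair the study set against each other. The 10 genes did not line up along a single axis between them. *Snai2* was 23.0-fold higher in BSCs (4.52 ± 0.27, SE, edgeR adjusted p = 8.96e-11), *Cdh2* 17.6-fold (4.14 ± 0.40, edgeR adjusted p = 5.24e-08), *Grhl2* 4.45-fold (2.15 ± 0.10, edgeR adjusted p = 3.92e-12) and *Esrp1* 3.25-fold (1.70 ± 0.10, edgeR adjusted p = 5.21e-11). *Snai1* was 32.3-fold lower (-5.02 ± 0.48, edgeR adjusted p = 5.52e-08), *Vim* 18.9-fold (-4.24 ± 0.37, edgeR adjusted p = 1.79e-08), *Zeb2* 12.3-fold (-3.62 ± 0.32, edgeR adjusted p = 2.06e-08) and *Zeb1* 11.3-fold (-3.50 ± 0.28, edgeR adjusted p = 5.27e-09). With *Twist1*, 4 genes were higher and 5 lower, while 30.5% of all genes were higher and 35.6% lower.

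*Cdh1* differed by 0.01 ± 0.09 (SE), with a 95% interval of -0.16 to 0.18, and became 0.42 (edgeR adjusted p = 7.93e-05) with library size alone. That scaling moved the median of all genes by 0.38, and 64.5% of calls were then higher in BSCs in place of 46.1%. The call for *Twist1* (edgeR adjusted p = 0.0453) rested on 3 reads in BSCs and 5 in alveolar cells, 5.54 times the BSC level in alveolar cells with a 95% exact counting interval of 1.08 to 35.7, and it was lost when any 1 library other than BSC replicate 1 was left out. In alveolar cells the endothelial sum was 144.9 to 294.8 CPM, beside 0.847 to 1.19 CPM in BSCs, and *Col1a1* stood at 0 to 0.169 CPM in BSCs. The part of endothelial and fibroblast transcripts in the alveolar values was not tested.

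Of the 20 epithelial partners, 12 exceeded their alveolar level in BSCs and 2 were lower, led by *Cdh3* (6.76 ± 0.30) and *Grhl3* (4.50 ± 0.31), with a median of 0.81 beside -0.09 over all genes. Of the 20 mesenchymal genes, 2 were higher and 18 lower, led by *Col3a1* (-11.69 ± 0.70) and *Col1a2* (-11.58 ± 0.74) (SE). Of the 13 other factors, 4 were higher and 7 lower, and *Tcf21* and *Prrx1*, at 0 reads in BSCs, were at least 613-fold and 166-fold higher in alveolar cells. Of the 18 TGF-beta pathway genes, 9 were higher and 5 lower, led by the endothelial co-receptor gene *Eng* (-7.11 ± 0.75) and *Ltbp1* (-6.81 ± 0.42) (SE).

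**Figure D3:**
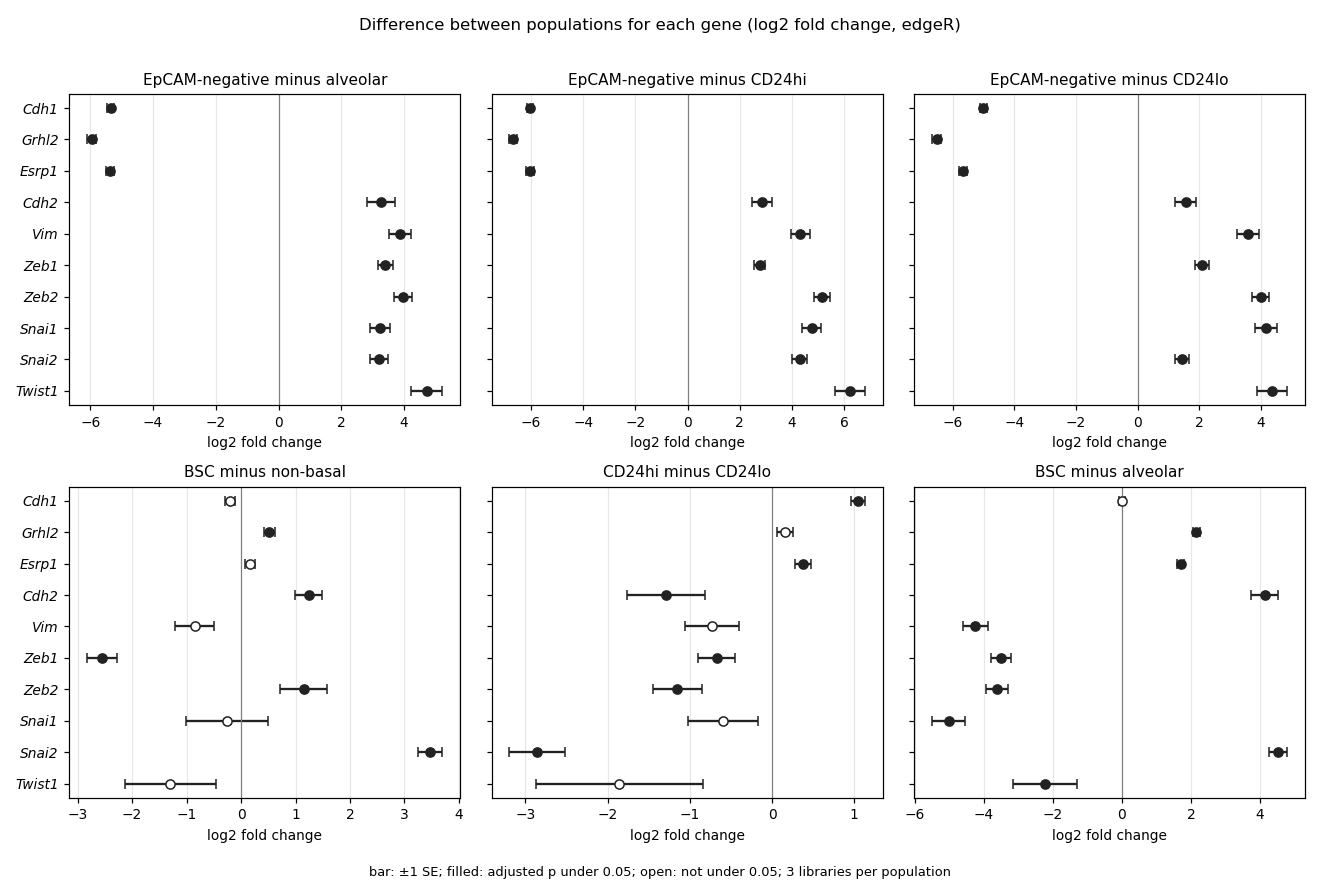
Log2 fold change of the 10 genes in 6 comparisons, with bars of ±1 SE. Filled points have an edgeR adjusted p under 0.05 and open points do not. The 3 EpCAM-negative panels share a pattern of 7 higher and 3 lower genes, whereas *Snai2* and *Cdh2* stand opposite to *Vim*, *Zeb1*, *Zeb2* and *Snai1* in BSCs against alveolar cells.

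Against EpCAM-negative cells, BSCs were higher in 5 genes and lower in 5, while 33.7% of all genes were higher and 36.6% lower. The 3 epithelial genes were higher, *Grhl2* by 275-fold, *Esrp1* by 134.5-fold and *Cdh1* by 41.1-fold. *Snai2* (2.49-fold, 1.32 ± 0.21, SE, edgeR adjusted p = 1.81e-05) and *Cdh2* (1.83-fold) were higher as well. *Snai1*, *Vim*, *Zeb2* and *Zeb1* were lower by 306-, 274-, 191- and 119-fold, and the EpCAM-negative level of *Twist1* was 151 times that of BSCs, with a 95% exact counting interval of 50.8 to 740.2. *Twist1* entered the test only through the EpCAM-negative libraries, so its direction is not independent of the filter. All 20 epithelial partners were higher in BSCs, with *Ehf* (7.89 ± 0.25) and *Elf3* (7.01 ± 0.16) leading, and all 20 mesenchymal genes were lower, with *Col1a2* (-16.55 ± 0.79) and *Col3a1* (-16.36 ± 0.76) leading (SE). The other factors were 1 higher and 8 lower of 13. Against the floor of 3 reads in BSCs, *Tcf21* and *Prrx1* were 7406- and 5345-fold higher in EpCAM-negative cells. The TGF-beta pathway genes were 2 higher and 10 lower of 18, with *Ltbp1* (-10.74 ± 0.45) and *Ltbp2* (-9.97 ± 0.34) leading (SE). With library size alone 4 factors and 4 pathway genes were higher, and with only the 6 libraries 3 factors were.

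Ratios within a library do not depend on scaling between libraries. The ratio of *Snai2* to *Snai1* per length was 124, 398 and 180.1 in BSCs and 21.8, 6.31 and 28.2 in non-basal cells, on few *Snai1* reads. It was 0.978, 2.19 and 3.35 in CD24lo cells and below 1 in every CD24hi, alveolar and EpCAM-negative library, at 0.197 to 0.446. The Snail family member with the higher level per length was thus *Snai2* in trachea and *Snai1* in EpCAM-negative, alveolar and CD24hi cells.

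The ratio of *Zeb1* to *Zeb2* was 13.2, 31.1 and 14.3 in non-basal cells, 4.04 to 4.59 in CD24hi, 2.68 to 3.65 in CD24lo, 1.14 to 1.23 in the alveolar gate and 1.12 to 1.38 in BSCs. EpCAM-negative cells were the only population with more *Zeb2* than *Zeb1* per length, at 0.751 to 0.836. *Esrp1* exceeded *Zeb1* by 238.5 to 269.8 times in BSCs, 37.9 to 38.8 times in non-basal cells and 2.16 to 10.2 times in the lung epithelial libraries. In EpCAM-negative libraries the ratio was 0.0120 to 0.0216. *Cdh1* exceeded *Vim* in 14 of the 15 epithelial libraries, the exception being CD24lo cells of mouse 4, at 0.845.

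**Figure D4:**
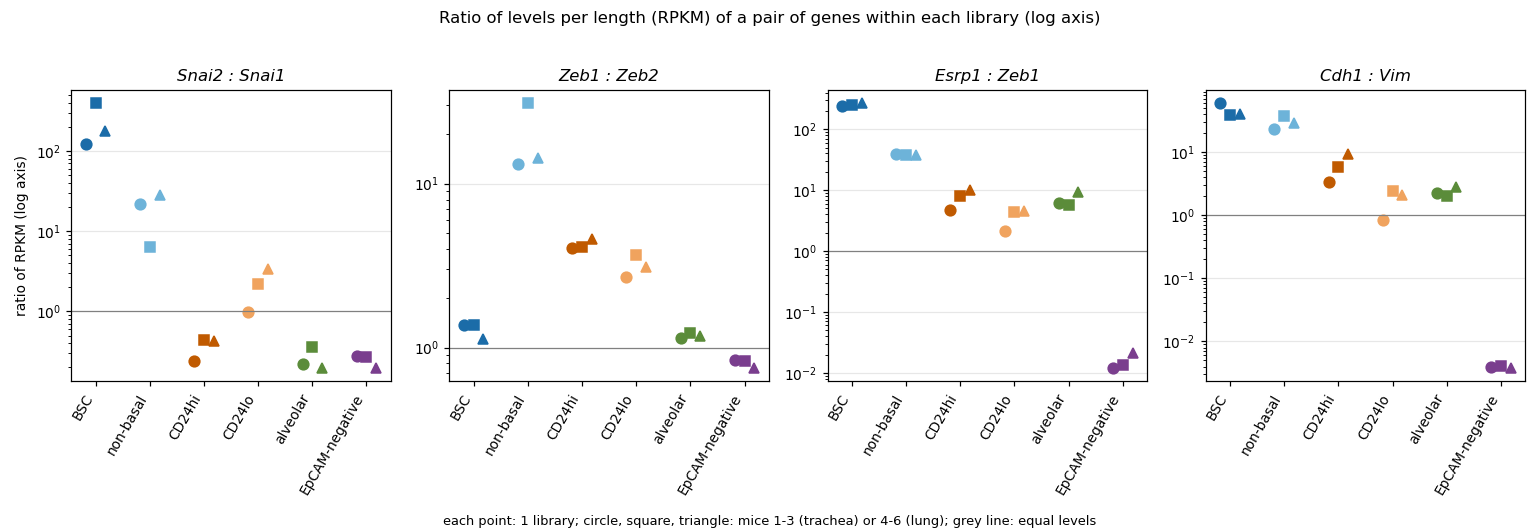
Ratio of the levels per length of 4 pairs of genes within each library, on a log axis, with a grey line at equal levels and symbols by mouse. *Snai2* exceeds *Snai1* in the 6 tracheal libraries, and *Zeb1* falls below *Zeb2* in the 3 EpCAM-negative libraries alone.

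Finally, the genes most like each of the 10 were taken from 12008 or 12009 genes that averaged 5 CPM or more, by Pearson's r of log2 CPM over the 18 libraries, which share animals and fall into 6 populations. *Grhl2* and *Esrp1* were most like each other (r = 0.998), followed for both by *Celsr1* and *Foxa1*. *Cdh1* was most like *Epcam* (r = 0.995), *Rassf7* and *Marveld2*, and the likeness to *Epcam* is not independent of the sort on its product. *Vim* was most like *Igfbp4* (r = 0.997), *Dchs1* and *Ltbp1*, *Zeb2* like *Pear1* (r = 0.992), *Tspan4* and *Fxyd1*, and *Snai1* like *Emilin1* (r = 0.989), *Prkg2* and *Vstm4*. *Zeb1* was most like *Tmod2* (r = 0.989), *Jam2* and *Arrb1*, and *Twist1* like *Ccl11* (r = 0.965), *Gpsm3* and *C1qtnf1*. *Snai2* was most like *Inpp5f* (r = 0.963), *Klf4* and *Cd109*, and *Cdh2* like *Tenm3* (r = 0.964), *Lrig3* and *Cep192*. Between members, *Snai2* and *Cdh2* had r = 0.85 with each other and at most 0.33 with any of *Vim*, *Zeb1*, *Zeb2*, *Snai1* and *Twist1*, which had r from 0.76 to 0.97 among themselves.

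In the GENCODE M21 annotation, exons of *Zeb2* share 653 bases with *Zeb2os* on the opposite strand, and exons of *Zeb1*, *Grhl2* and *Esrp1* share 198, 169 and 127 bases with opposite-strand transcripts. The counts rest on a RefSeq annotation, in which *Zeb2* has 9113 bases, and whether it holds these stretches was not tested. Whether counting used strand is not stated.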

How the data were processed

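The authors aligned 100 bp single-end reads to mm10 with Rsubread and deposited raw counts per Entrez gene and library from featureCounts (RefSeq annotation, strand not stated), with no normalization. Symbols came from a RefSeq GRCm38.p6 table, which matched 25275 of 27179 identifiers. Genes above 0.2 CPM in at least 3 libraries (17989) were fitted in 1 quasi-likelihood model of the 18 libraries by edgeR 4.0.16 (R 4.3.3) with TMM factors, and p-values were adjusted by Benjamini-Hochberg over all genes tested, with a threshold of 0.05. The SE was derived from the F statistic. Scripts were tested on simulated data. DESeq2 1.42.0 and limma 3.58.1 (voom) served as alternatives, beside other scalings, filters, depth, a gene length correction, left-out libraries and a mouse block.

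The labels give replicates as separate mice. Same-mouse libraries share an animal, so the mouse pairs them, and correlations of their deviations were 0.34, 0.12 and 0.22 in trachea, 0.28, 0.04 and 0.17 between the CD24 gates and -0.06 to 0.09 against EpCAM-negative cells. The members and the gene lists were chosen with earlier results of these data known. All 10 members were named, with the 2 called genes of largest log2 fold change per list and comparison and the 3 most correlated genes per member. One gene that this rule named is not reported here. Counting intervals and floors cover counting error only, and a floor leaves out that of the population with reads.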

Additional observations from a re-analysis of the deposited data

How the results depend on the processing

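All 10 genes stayed called between EpCAM-negative cells and each of the 3 lung gates, and between these cells and BSCs, under every alternative run, including each library left out (10 to 10). *Twist1* is among the 10 and passed the main filter only through the EpCAM-negative libraries, so its direction is not independent of that filter. BSCs against non-basal cells gave 5 called genes, 8 with DESeq2, 8 with only the 6 libraries compared, 8 with the replicate block, and 4 to 5 with a library left out. CD24hi against CD24lo gave 6, 3 with only the 6 libraries compared, 6 with the block, and 4 (without CD24hi replicate 3) to 9 (without CD24lo replicate 3). BSCs against alveolar cells gave 9 and, with a library left out, 8 to 9. The title number as a block gave 8 there and 10 for BSCs against EpCAM-negative cells, although these numbers mark different mice. The block changed no other count of the 10 genes by over 1.5 times. It was not run for the 128 contrasts called over all pairs, which ranged from 122 to 131 with a library left out. The number of all genes called stayed within 1.5 times under each alternative: 10199 to 10492 with a library left out for EpCAM-negative against alveolar, 12104 to 13126 against CD24hi, 10406 to 11119 against CD24lo, 7395 to 8119 for BSCs against non-basal, 10851 to 11298 against alveolar, 11655 to 12154 against EpCAM-negative cells and 9153 to 10385 between the CD24 gates.

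Signs changed only where no call was made. With library size alone, *Cdh1* (0.14) and *Snai1* (0.0722) reversed between BSCs and non-basal cells. *Cdh1* reversed between BSCs and alveolar cells with a CPM above 1 (-0.0110), with thinned tracheal libraries (-0.0411) and with the length trend removed (-0.13). With a library left out, *Snai1* ranged from -0.53 to 0.34 and *Cdh1* from -0.0312 to 0.0551 in these comparisons. The cause was not tested. *Zeb2* between BSCs and non-basal cells was not called with voom (adjusted p = 0.0705), thinning (0.125) or the length correction (0.0865). Of the list counts, 828 stayed within 1.5 times and 36 did not. Low counts limit *Twist1* in all epithelial libraries, *Snai1* in trachea and both CD24 gates, *Cdh2* in the lung gates and *Snai2* in CD24hi and alveolar cells. They also limit *Twist2* in the lung epithelial gates and *Foxc2* in both CD24 gates.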
